A study of Mus musculus with 6 samples.

Results

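The Kv4 A-type channel complex was described here through the 9 genes of its parts, 3 Kv4 alpha subunits (*Kcnd1*, *Kcnd2* and *Kcnd3*), 4 KChIPs (*Kcnip1*, *Kcnip2*, *Kcnip3* and *Kcnip4*) and 2 DPP-like subunits (*Dpp6* and *Dpp10*). The genes were chosen by symbol, and all 9 are among the 50508 symbols listed for each library. RNA came from primary neurons of newborn C57Bl/6J mouse pups, transduced with lentivirus and sequenced in 3 sgLacZ libraries (Ctrl-dCas9A, a control guide against LacZ) and 3 sgKcna1 libraries (Kcna1-dCas9A, guide sg19 against the promoter of *Kcna1*). Both groups carried a nuclease-dead Cas9 fused to the activator VP160 under the Ef1alpha promoter, which is active in most cell types, and only the guide differed between groups. The labels give hippocampus as the region, whereas the methods describe cortical cultures, and the methods give 2 different ages at harvest. The methods state in general terms that experiments were repeated independently, but neither source ties each library to a culture of its own, so that p-values measure only the spread between these samples.

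The Kv4 channel is a tetramer of alpha subunits that opens at potentials below the spike threshold and inactivates rapidly, which gives the A-type potassium current. In neurons this current lies mainly in the cell body and dendrites, where it delays the first spike and damps spikes that travel back into dendrites. KChIPs are calcium-binding proteins that sit on the cytoplasmic N terminus of the alpha subunit and bring the channel to the surface. DPP-like subunits are single-pass membrane proteins related to dipeptidyl peptidases, without the enzyme activity, and they speed up opening, inactivation and recovery. *Kcna1*, the gene activated in this study, encodes a Kv1 alpha subunit of the axon and belongs to another channel family.

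The values are 3' tags that the authors scaled to a common total (999047 to 999717 per library) and rounded to whole numbers. A 3' library yields tags from the end of a transcript, so that values were not divided by length and the order of genes below is an order of tags. *Kcna1* itself was listed at 16, 16 and 16 in sgLacZ and at 68, 47 and 65 in sgKcna1. This is a log2 fold change of 1.83 (SE 0.16) with a Benjamini-Hochberg adjusted p of 0.0345 from limma. The call was lost with the replicate number as a block (adjusted p = 0.111 from limma) and when any library other than sgLacZ replicate 3 was left out (0.112 to 0.143), settings in which 0 genes passed, so that the marker calls given next were lost there as well. All 8 neuron markers checked were above 0 in these cultures, and so were 3 of 3 markers of hippocampal excitatory neurons, among them *Prox1* at 75 to 160. The libraries differed in other cells as well. The 9 astrocyte markers summed to between 925 and 1037 in sgLacZ and to between 672 and 698 in sgKcna1, and 3 of the 9 passed the test, all lower. The 8 oligodendrocyte lineage markers summed to 66 to 98 against 40 to 44 (1 of 7 tested passed, lower), with *Mog* at 0, and the 8 markers of dividing cells to 100 to 106 against 64 to 65 (0 passed). The 8 microglia markers summed to 16 to 24 against 41 to 53 (1 of 7 tested passed, higher), with *P2ry12* at 0. The 8 neuron markers summed to 4405 to 5220 against 5626 to 7047, but this order rests on *Tubb3*, listed at 1862, 1752 and 2605 against 3855, 3221 and 4591. Without it the other 7, of which *Map2* weighs most, summed to 2543 to 2760 against 2405 to 2521, and the estimates of the 8 markers lay above 0 for 5 and below 0 for 3. The 7 excitatory neuron markers summed to 1260 to 1407 against 1197 to 1265, the 3 hippocampal ones to 1475 to 1612 against 1359 to 1614, and the 8 inhibitory neuron markers to 279 to 312 against 269 to 317, and none of these neuron lists held a gene that passed. Without the gene of the highest mean, a choice made after seeing the data, these 3 sums were lower in sgKcna1 with no overlap. For excitatory neurons they were 651 to 666 against 700 to 737 in sgLacZ. *Neurod6* weighs most in that sum (512, 484 and 471 in sgLacZ against 388, 361 and 362 in sgKcna1). *Slc17a7* (33, 29 and 41 against 47, 54 and 57) and *Camk2a* were higher in sgKcna1 with no overlap. The estimates of the 7 excitatory markers lay above 0 for 2 and below 0 for 5. The astrocyte, microglia, oligodendrocyte lineage and dividing cell lists kept their direction without their highest gene. In bulk RNA, fewer cells of a type and less RNA per cell cannot be told apart.

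The sequences shown first are the guide that separates the groups and the stretches of the Kv4 complex promoters that resemble it most, because the activator is carried to where the guide binds. The guide was read from NCBIM37, where it matched exactly once in the 500 bases upstream of *Kcna1*, at chr6:126595930-126595949 on the plus strand. Its PAM is in capitals. RefSeq promoter windows of GRCm38.p6, from 250 bases before to 50 after each start, were found for 8 of the 9 genes (15 starts, none of *Kcnd1*). In each window the closest ungapped stretch of 20 bases next to an NGG PAM was taken from both strands. In the sites below, capitals mark bases that differ from the guide.
sg19: agtcaatgatcacatcctccTGG
Kcnd2: TgGcTCtgCtcGcCtGcGcc
Kcnip3 (start 1): TgGcaCtgGCAGGCtcctcc
Dpp6 (start 1): agCcCCtgaGcGcaCGcATG
Dpp10: CgCcaatTCCGaGaGcGAcG

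The closest sites in the Kv4 complex promoters had 9 mismatches of 20 bases, upstream of *Kcnd2* and across *Kcnip3* start 1. The closest *Dpp6* sites, at starts 1 and 3, had 10 mismatches, and the closest *Dpp10* site had 11. Over all 32851 promoter windows the median was 11 mismatches, and 15.3% of windows had a site with 9 or fewer, so that the Kv4 complex windows lay in the common range.

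The second set of sequences gives the 150 bases before the starts of *Kcnd2*, *Dpp6* and *Dpp10*, the members with the highest levels or with groups that did not overlap. The build is GRCm38.p6, each is written on the strand of its gene, and capitals mark CG dinucleotides.
Kcnd2, chr6:21215196-21215345, plus strand: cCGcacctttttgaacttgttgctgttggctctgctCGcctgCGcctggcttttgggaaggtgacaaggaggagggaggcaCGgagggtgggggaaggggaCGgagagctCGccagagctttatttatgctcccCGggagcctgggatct
Dpp6 (start 1), chr5:26817207-26817356, plus strand: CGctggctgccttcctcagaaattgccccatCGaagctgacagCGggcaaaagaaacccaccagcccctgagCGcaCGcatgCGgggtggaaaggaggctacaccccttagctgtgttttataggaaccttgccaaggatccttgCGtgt
Dpp6 (start 2), chr5:27049049-27049198, plus strand: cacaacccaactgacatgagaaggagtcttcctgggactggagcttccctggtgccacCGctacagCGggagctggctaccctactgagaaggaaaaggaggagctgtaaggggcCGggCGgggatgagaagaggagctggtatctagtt
Dpp6 (start 3), chr5:27261785-27261934, plus strand: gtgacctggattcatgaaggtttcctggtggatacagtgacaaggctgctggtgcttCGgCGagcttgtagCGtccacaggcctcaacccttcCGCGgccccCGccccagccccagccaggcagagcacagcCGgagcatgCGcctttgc
Dpp10, chr1:124045560-124045709, minus strand: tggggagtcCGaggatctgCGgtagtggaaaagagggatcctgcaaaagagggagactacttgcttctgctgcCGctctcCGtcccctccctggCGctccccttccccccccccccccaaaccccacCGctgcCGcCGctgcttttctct

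*Kcnd2* has 1 start in the table, with 22 CG dinucleotides and 68.8% GC in the 250 bases before it. *Dpp6* has 3 starts with 8, 6 and 10 CG dinucleotides, and *Dpp10* has 1 start with 14. Over all promoters the median was 6, with a lower quartile of 2 and an upper quartile of 16. The motif TATAAA, searched on the gene's strand only, was in 0 of the 15 member windows and in 7.59% of all windows.

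*Kcnd2* and *Dpp6* made up most of the tags of the 9 genes in both groups, which does not give the make-up of assembled channels. Over the 6 libraries *Kcnd2* had a mean of 124 tags (106 to 154) and *Dpp6* a mean of 104 (76 to 169), and their ranges overlapped. Next came *Kcnd3* at 17 (13 to 21), *Kcnip2* at 12 (7 to 15), *Kcnip3* at 10.2 (7 to 16), *Dpp10* at 7.33 (3 to 13), *Kcnip1* at 6.83 (5 to 9), *Kcnd1* at 3.67 (3 to 5) and *Kcnip4* at 1.5 (1 to 2). Only 2 steps in this order exceeded the spread over all 6 libraries, from *Dpp6* down to *Kcnd3* and from *Kcnd1* down to *Kcnip4*. All other neighbours overlapped in range. Within sgLacZ alone *Kcnd2* (106 to 124) lay above *Dpp6* (76 to 84) with no overlap, and the order of the group means differed for *Kcnip3* and *Kcnip2* (12.7 and 11 in sgLacZ, 7.67 and 13 in sgKcna1) and for *Dpp10* and *Kcnip1* (9.67 and 6.67 in sgLacZ, 5 and 7 in sgKcna1). The last 500 bases of the protein-coding member transcripts (GENCODE vM1) were searched in stretches of 75 bases, the read length. No such stretch was shared exactly with protein-coding transcripts of another gene, and other transcripts, such as those of pseudogenes, were not searched. In the same annotation 0 other genes overlapped the last 2000 bases of a member gene. Similar members therefore did not share annotated 3' sequence, although the proteins translated from their longest coding sequences were 69.3% to 77.9% identical between alpha subunits, 66.3% to 79.0% between KChIPs and 50.7% between *Dpp6* and *Dpp10*.

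**Figure D1:**
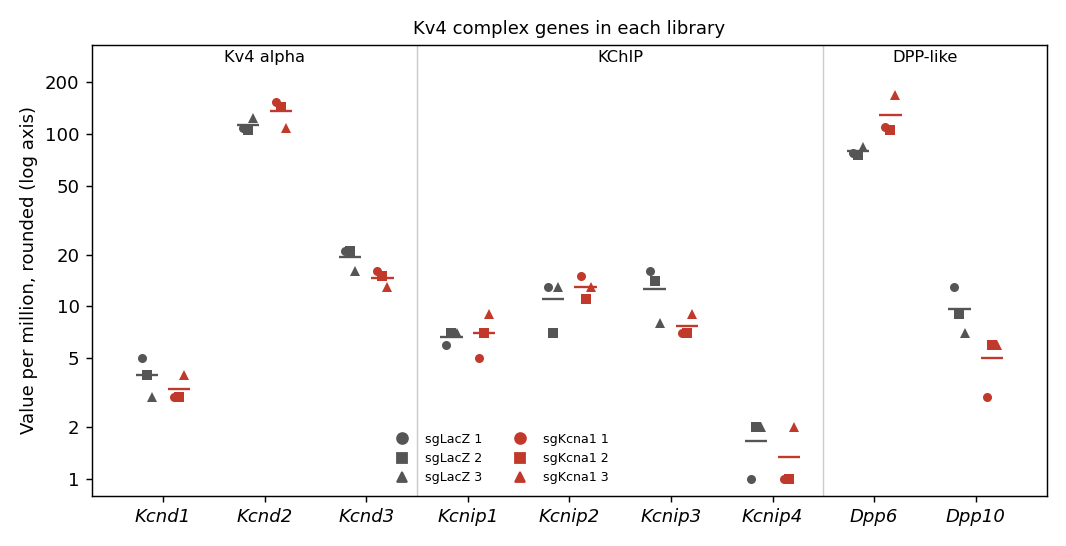
Values of the 9 genes in each library, in scaled tags on a log axis, with sgLacZ in grey, sgKcna1 in red, 1 symbol per replicate number and lines for group means. *Kcnd2* and *Dpp6* lie above 75 in every library, all other members at 21 or below, and only *Dpp6* and *Dpp10* have groups that do not overlap.

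Of the 9 genes, 0 passed an adjusted p of 0.05 in limma over the 19504 genes tested, of which 1.16% passed. Adjusted p among the members ranged from 0.0891 to 0.967. At an unadjusted p under 0.05 there were 2 of 9 members, *Dpp6* and *Dpp10*, where 23.2% of all genes were called, so that this share is near the background. The groups did not overlap for 1 member that was higher in sgKcna1, *Dpp6* (8.98% of all genes), and for 1 that was lower, *Dpp10* (13.3% of all genes). The median log2 fold change was -0.19 over the members and -0.02 over all genes tested.

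**Figure D2:**
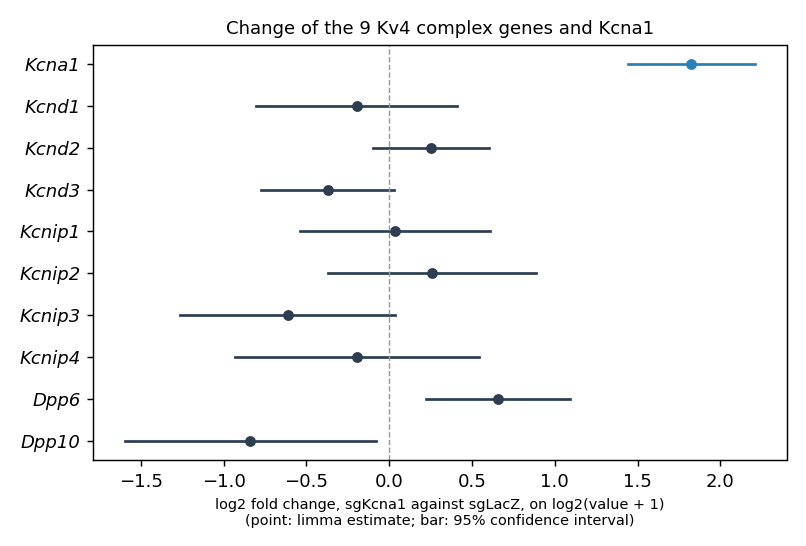
The log2 fold change of sgKcna1 against sgLacZ on log2(value + 1) for *Kcna1* and the 9 Kv4 complex genes, as limma estimates with unadjusted 95% confidence intervals. The interval of *Kcna1* runs from 1.44 to 2.21 and lies above that of every member, and the intervals of 7 of the 9 members include 0.

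The alpha subunits form the pore of the channel. *Kcnd2* (chr6:21215346-21729805), which encodes the main Kv4 subunit of hippocampal pyramidal cells, was listed at 108, 106 and 124 in sgLacZ and at 154, 144 and 109 in sgKcna1. The first and second sgKcna1 libraries were above every sgLacZ library, while the third was within their range. The means were 113 ± 9.87 and 136 ± 23.6 (SD, n = 3 each), with a log2 fold change of 0.25 (95% interval -0.10 to 0.61, adjusted p = 0.347 from limma).

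*Kcnd3* (chr3:105451890-105674002) encodes the Kv4 subunit that is prominent in many interneurons and in the heart. It was listed at 21, 21 and 16 in sgLacZ and at 16, 15 and 13 in sgKcna1, so that the groups met at a value of 16. The estimate was -0.37 on the log2 scale (95% interval -0.77 to 0.03, adjusted p = 0.248 from limma). *Kcnd1* (chrX:7823759-7838278), the least abundant alpha subunit here, was listed at 5, 4 and 3 against 3, 3 and 4. Its log2 fold change was -0.19 (95% interval -0.80 to 0.41), and rounding by 0.5 either way spans 0.62 at these levels.

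Within the alpha subunits, the share of *Kcnd2* was 80.6%, 80.9% and 86.7% in sgLacZ and 89.0%, 88.9% and 86.5% in sgKcna1, which overlap. The share of *Kcnd3* was 15.7%, 16.0% and 11.2% against 9.25%, 9.26% and 10.3%, with every sgKcna1 library below every sgLacZ library. Shares within a library are free of the scaling between libraries. They were given no test, since they were built from the chosen members.

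The KChIPs carry EF hands and tune the channel to calcium. *Kcnip2* (chr19:45792346-45816422), the KChIP that the heart depends on, was listed at 13, 7 and 13 in sgLacZ and at 15, 11 and 13 in sgKcna1. Its log2 fold change was 0.26 (95% interval -0.37 to 0.89, adjusted p = 0.523 from limma). Without the second sgLacZ library, the lowest of the 6, it was -0.01.

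*Kcnip3* (chr2:127456498-127522094) encodes KChIP3, also known as DREAM or calsenilin, which in addition binds DNA as a calcium-regulated repressor. It was listed at 16, 14 and 8 in sgLacZ and at 7, 7 and 9 in sgKcna1. The first and second sgLacZ libraries stood above all others, and the third lay within the sgKcna1 range. On the log2 scale the change was -0.61 (95% interval -1.26 to 0.03, adjusted p = 0.235 from limma). Leaving out the third sgLacZ library gave -0.89 (adjusted p = 0.0375 from limma), while over all 17 alternatives the adjusted p ranged from 0.0375 to 0.444. Of the genes known as targets of this repressor, *Pdyn* was listed at 8, 6 and 3 against 4, 3 and 3, *Fos* at 8, 6 and 6 against 7, 5 and 8, and *Slc8a3* at 4, 2 and 5 against 5, 4 and 6. None of these 3 genes passed the test, and their groups overlapped.

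*Kcnip1* (chr11:33629339-33993348), a KChIP common in interneurons, was listed at 6, 7 and 7 against 5, 7 and 9, with a log2 fold change of 0.03 (95% interval -0.54 to 0.61). *Kcnip4* (chr5:48389503-49525122), whose KChIP4a isoform slows inactivation, was listed at 1, 2 and 2 against 1, 1 and 2. Its interval of -0.93 to 0.54 leaves room for a change in either direction, and rounding alone spans 1.18 on the log2 scale at this level. The 4 KChIPs together came to 36, 30 and 30 in sgLacZ and to 28, 26 and 33 in sgKcna1.

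*Dpp6* (chr5:26817357-27727500) is the DPP-like subunit that associates with Kv4 channels in the dendrites of pyramidal cells. It was listed at 78, 76 and 84 in sgLacZ and at 110, 106 and 169 in sgKcna1, with every sgKcna1 library above every sgLacZ library. The means were 79.3 ± 4.16 and 128 ± 35.3 (SD, n = 3 each). The log2 fold change was 0.66 (SE 0.18, 95% interval 0.22 to 1.09), a fold of 1.57 on this scale, with an unadjusted p of 0.0091 and an adjusted p of 0.0891 from limma, and a p of 0.1 in the two-sided exact permutation test, the smallest that 3 libraries against 3 allow. The third sgKcna1 library was highest by a wide margin, and without it the estimate fell to 0.44 (adjusted p = 0.133 from limma). The call turned on the processing. *Dpp6* passed with median-of-ratios factors (adjusted p = 0.0227 from limma), upper-quartile factors (0.0118), *Gm42418* (15.3% to 20.2% of all tags) left out (0.0289), only genes with a mean of at least 10 (0.0102), no filter (0.0019) and a robust trend (0.000393). In these settings more of all genes passed as well, with 8.82%, 10.6%, 9.27%, 28.4%, 4.76% and 14.8% in the same order. Over all 17 alternatives its adjusted p ranged from 0.000393 to 0.285, and its log2 fold change from 0.44 to 0.78, above 0 in each.

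*Dpp10* (chr1:123332138-124845815), the DPP-like subunit found more in neocortex and interneurons, was listed at 13, 9 and 7 in sgLacZ and at 3, 6 and 6 in sgKcna1. Here every sgKcna1 library was below every sgLacZ library, by 1 unit at the nearest pair. The log2 fold change was -0.84 (SE 0.32, 95% interval -1.60 to -0.08), with an unadjusted p of 0.0347 and an adjusted p of 0.172 from limma, and a p of 0.1 in the two-sided exact permutation test. Rounding spans 0.38 on the log2 scale at this level. Over 16 alternatives the log2 fold change ranged from -1.03 to -0.57 and the adjusted p from 0.0507 to 0.417. The summed values of the astrocyte, oligodendrocyte lineage and dividing cell markers, given above, did not overlap between groups and were below those of sgLacZ in sgKcna1, although only 3 of 9, 1 of 7 and 0 of 8 tested genes passed and *Mbp*, a myelin gene, stood at 3, 3 and 2 against 7, 4 and 7. Their part in the value of *Dpp10* was not tested.

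**Figure D3:**
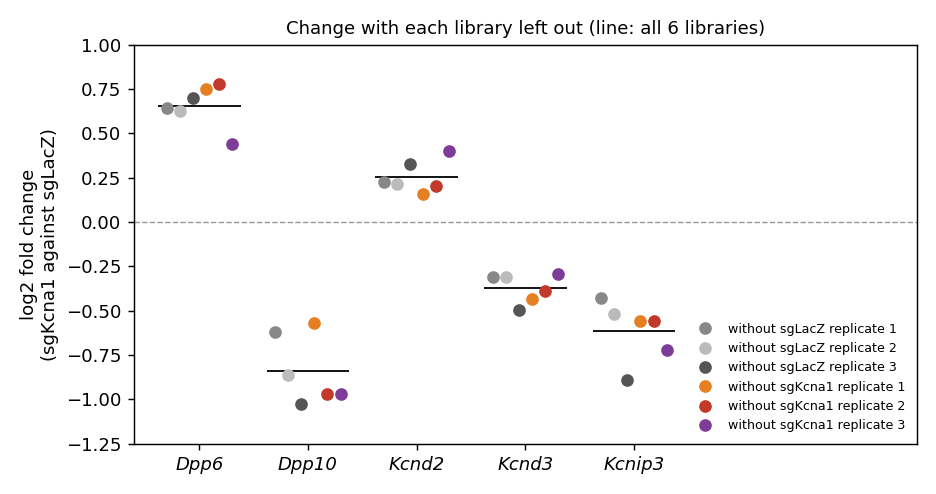
The log2 fold change of *Dpp6*, *Dpp10*, *Kcnd2*, *Kcnd3* and *Kcnip3* with each library left out in turn (coloured points) beside the value from all 6 libraries (line). Direction is kept in every case for these 5 members, though not for *Kcnip1* and *Kcnip2*, which are not plotted. *Dpp6* drops to 0.44 without sgKcna1 replicate 3 and *Kcnip3* reaches -0.89 without sgLacZ replicate 3.

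The estimates of the 2 DPP-like genes had opposite signs, and neither passed the test. For each *Dpp10* tag there were 6, 8.44 and 12 *Dpp6* tags in sgLacZ and 36.7, 17.7 and 28.2 in sgKcna1, and the groups did not overlap. The share of *Dpp6* within the pair was 85.7%, 89.4% and 92.3% against 97.3%, 94.6% and 96.6%. Since the groups of both genes were already apart, in opposite directions, the ratio and the share had to separate and add no further result.

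The ratio of *Dpp6* to *Kcnd2* was alike in 5 of the 6 libraries. Per 100 *Kcnd2* tags there were 72.2, 71.7 and 67.7 *Dpp6* tags in sgLacZ and 71.4 and 73.6 in the first 2 sgKcna1 libraries. The third sgKcna1 library stood apart with 155, since it held the highest *Dpp6* value and a *Kcnd2* value within the sgLacZ range. DPP-like tags per 100 alpha tags followed the same course, with 67.9, 64.9 and 63.6 against 65.3, 69.1 and 139. KChIP tags per 100 alpha tags were 26.9, 22.9 and 21.0 against 16.2, 16.0 and 26.2, so that here too the third sgKcna1 library differed from the other two. The alpha subunits summed to 134, 131 and 143 against 173, 162 and 126. All 9 members summed to 261, 246 and 264 against 314, 300 and 334, which do not overlap, and *Kcnd2* and *Dpp6* hold most of that sum. For comparison, *Kcna1* came to 14.8, 15.1 and 12.9 tags per 100 *Kcnd2* tags in sgLacZ and to 44.2, 32.6 and 59.6 in sgKcna1.

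**Figure D4:**
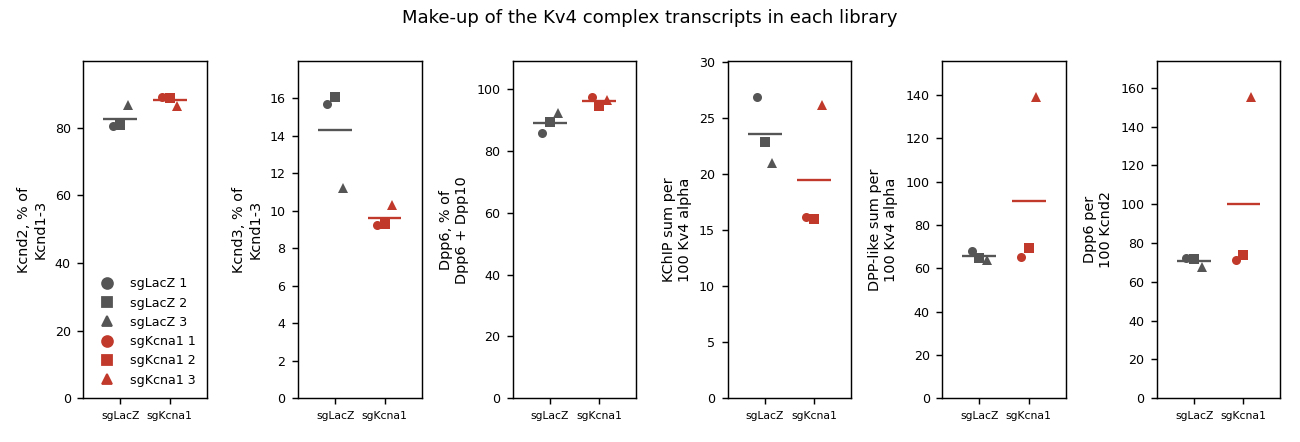
Shares and ratios of Kv4 complex transcripts in each library, with sgLacZ in grey, sgKcna1 in red, axes from 0 and lines for group means. *Kcnd3* is a smaller share of the alpha subunits and *Dpp6* a larger share of the DPP-like pair in all 3 sgKcna1 libraries, while the ratio of *Dpp6* to *Kcnd2* is near 70 in 5 libraries and 155 in sgKcna1 replicate 3. The separation of the *Dpp6* share follows from *Dpp6* and *Dpp10*, whose own groups do not overlap.

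The genes closest in profile were sought among 8049 genes with a mean of at least 10, by the root-mean-square distance between centred log2(value + 1) profiles over the 6 libraries. Nearest to *Kcnd2* were *Trp53rka* (distance 0.06), *Slc15a4* (0.07) and *Rasal2* (0.07). *Slc15a4* was listed at 38, 38 and 43 in sgLacZ and at 48, 49 and 37 in sgKcna1, with the same drop in the third sgKcna1 library. Nearest to *Dpp6* were *Ptcd1* (0.06), the ribosomal protein pseudogene *Rpl36-ps2* (0.07) and *Edf1* (0.08). *Ptcd1* was listed at 37, 36 and 41 against 57, 48 and 78. *Rpl36-ps2* may share reads with its parent gene.

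Other A-type potassium channels pass a similar current through other alpha subunits. Of the 2 such genes reported here 0 passed the test. *Kcna4*, a fast-inactivating Kv1 subunit, was listed at 8, 12 and 11 against 19, 12 and 13, and *Kcnc4*, a fast-inactivating Kv3 subunit, at 3, 5 and 2 against 8, 5 and 6. For both genes the groups overlapped.

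Of 21 other partners and regulators of Kv4 channels, 17 were tested, among them *Kcne5* under its older symbol *Kcne1l*, and 4 other *Kcne* genes were at 0 in every library. Among the 17, 0 passed as higher and 1 passed as lower, where 1.16% of all genes tested passed. The estimates lay above 0 for 8 and below 0 for 9 of them, with a median log2 fold change of -0.07 against -0.02 over all genes tested. The gene that passed was *Ncs1*, which encodes neuronal calcium sensor 1 or frequenin, a relative of the KChIPs that can also bind Kv4 channels. It was listed at 99, 92 and 63 in sgLacZ and at 34, 26 and 26 in sgKcna1, so that all sgKcna1 libraries were below all sgLacZ libraries. The log2 fold change was -1.51 (SE 0.20, adjusted p = 0.0486 from limma). The call was lost when any library other than sgLacZ replicate 3 was left out (adjusted p 0.112 to 0.143) and also with the replicate block (0.111), a pseudocount of 0.5 (0.0508) and no intensity trend (0.0522), with the direction kept, and over all 17 alternatives the adjusted p ranged from 6.31e-15 to 0.143.

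The kinases and scaffolds of that list gave values that did not pass. *Camk2a*, a kinase that phosphorylates Kv4 channels, was listed at 88, 93 and 124 against 146, 145 and 175 (adjusted p = 0.0692 from limma). *Dlg4*, the scaffold PSD-95, was listed at 338, 374 and 276 against 198, 217 and 227 (adjusted p = 0.0556 from limma). Both genes had groups that did not overlap (8.98% of all genes in the direction of *Camk2a* and 13.3% in that of *Dlg4*), and they were singled out after their values were seen.

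Among 7 neuronal calcium sensors related to the KChIPs, 6 were tested and *Rcvrn* was at 0. *Ncs1* was the 1 gene that passed, with the limits given above, where 1.16% of all genes tested passed, and the estimates lay below 0 for 4 of the 6. *Ncald*, the most abundant of them, was listed at 157, 146 and 151 against 139, 141 and 146. Of 8 peptidases of the DPP and prolyl oligopeptidase families, 7 were tested and 0 passed, and *Dpp4* was at 0 in every library. The median log2 fold change was -0.29 over these 7 genes and -0.02 over all genes tested, and *Prepl* was lowest among them at 36, 39 and 33 against 24, 25 and 21 (adjusted p = 0.0556 from limma).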

How the data were processed

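RNA of 3 sgLacZ and 3 sgKcna1 samples was sequenced with a QuantSeq 3' kit. The deposited files hold a score per gene symbol, a whole number that the authors scaled to a common total per library (999047 to 999717) and rounded. The methods name Bowtie2 and NCBI37/mm9, the submitters' processing notes STAR 2.7, mm10, featureCounts and DESeq2, and the scaling is not given in the sources used here. Of 50508 symbols, 34696 are in the RefSeq table of GRCm38.p6 and 28811 in GENCODE vM1 of NCBIM37, and gene coordinates are those of GRCm38.p6. The number of reads is unknown, so that no counting intervals are given.

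The 19504 genes with a value above 0 in any library went into limma 3.58.1 in R 4.3.3 (intensity trend, log2(value + 1), group as the only factor, Benjamini-Hochberg adjustment over all genes). A fold change on this scale understates that of low genes. All 9 members were tested. *Dpp6* and *Dpp10* are also given a two-sided exact permutation test over the 6 libraries. Sums, shares and ratios over members were given no test. The fit was tested on simulated data. Sequences were searched with Python 3.11.15 and Biopython 1.88, and protein identity was counted over local alignments. The members, lists and tests were chosen with earlier results of these data known. Named genes were the members, *Kcna1*, list genes past the threshold, all genes above 0 of lists of up to 5 (except for items not reported here), and for *Kcnd2* (highest mean) and *Dpp6* (smallest p) the 3 nearest profiles. Other genes named, in lists or as examples, were picked after their values were seen.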

Additional observations from a re-analysis of the deposited data

How the results depend on the processing

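The number of genes past an adjusted p of 0.05, 226 in the reported fit (68 higher, 158 lower), was 627 with a pseudocount of 0.1, 10 with 0.5, 1543 for genes with a mean of at least 1, 2289 for a mean of at least 10, 2405 with no filter, 1721 after median-of-ratios rescaling (963 genes higher and 758 lower), 2058 after upper-quartile rescaling (of which 1226 were higher and 832 lower), 1808 without *Gm42418*, 2884 with a robust trend and 201 with no intensity trend (117 of them higher and 84 lower). Upper-quartile rescaling moved the median log2 fold change of genes with a mean of at least 10 from -0.06 to 0.06, and no member changed direction with it. With 1 library left out it lay between 0 and 2711, and it was above 0 only without sgLacZ replicate 3 (3332 to 5776 genes at an unadjusted p under 0.05). The number of members past the threshold was 1 (*Dpp6*) for a mean of at least 10, with no filter, with each of the rescalings, without *Gm42418* and with a robust trend, and 0 to 1 with 1 library left out (*Kcnip3*, without sgLacZ replicate 3). A mean of at least 10 leaves 5 members. The cause of these differences was not tested.

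With the replicate number as a block, 0 genes passed in limma (4326 at an unadjusted p under 0.05), and the log2 fold change of *Kcna1* was 1.83 with an adjusted p of 0.111. Same-numbered libraries correlated by 0.01, 0.11 and 0.15 in their deviations from the group means over 8050 genes, so that the numbers were not taken to pair the cultures, and not every library correlated best with its own number. With 1 library left out, the log2 fold change of *Kcna1* lay between 1.73 and 1.99, and the call was kept only without sgLacZ replicate 3.

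Of 149 values of members under alternatives, 139 kept direction and call, 7 gained a call and 3 changed direction. Those 3 were of *Kcnip1* and *Kcnip2*, whose estimates from all 6 libraries were 0.03 and 0.26. With 1 library left out, *Kcnip1* lay between -0.14 (without sgKcna1 replicate 3) and 0.23, with -0.03 without sgLacZ replicate 1, and *Kcnip2* between -0.0099 (without sgLacZ replicate 2) and 0.39. Summed levels and ratios of the subunit classes moved by less than the spread between replicates, but that spread includes sgKcna1 replicate 3. Without this library the log2 difference in the ratio of DPP-like to alpha tags fell from 0.39 to 0.04, against a spread of 0.43. That of KChIP to alpha tags went from -0.31 to -0.54. The difference in the DPP-like ratio thus rests on 1 library. Rounding and the unknown depth limit *Kcnip4*, *Kcnd1*, *Kcnip1* and *Dpp10*.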
